A study of Homo sapiens with 4 samples.

Results

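Across 8 loci of the activator protein 1 (AP-1) and immediate early genes, 8 m6A peaks were listed in RWPE1 cells, 5 after FTO knockdown and 3 in control cells, out of 20410 peaks listed in all. The genes were JUN, JUNB, JUND, FOS, FOSL1, FOSL2, ATF3 and EGR1. Their peaks were chosen by position alone, as the peaks of either list that lay on the strand of the gene and overlapped its locus on hg19, with the locus bounds given to the nearest kb. RWPE1 is a human prostate epithelial cell line immortalized with papillomavirus. Stable lines were made by lentiviral infection and puromycin selection, with an FTO-directed shRNA (shFTO) or with the vector control (shCtrl), so both conditions carry a lentiviral vector. FTO removes the m6A mark from RNA, and the comparison asks which m6A peaks appear or are lost when it is depleted. MeRIP-seq enriches methylated RNA fragments with an anti-m6A antibody (IP), sequences them beside the unenriched RNA (input), and calls a peak where the IP library is enriched. Each condition had 1 IP and 1 input library, so differences between shFTO and shCtrl cells have no replicate check and no test between them was made. The deposited values are 1 peak list for each condition, with the position, strand, name and score of every peak.

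AP-1 is a dimer of basic leucine zipper proteins. A Jun protein pairs with another Jun protein, a Fos protein or an ATF protein, and the dimer binds short DNA elements near target genes. Most of these genes belong to the immediate early response, in which growth factors, serum or stress switch on transcription within minutes through proteins that are already present, and the resulting mRNAs are short-lived. EGR1 is a zinc finger transcription factor of the same early wave. The m6A mark is laid down by the METTL3 and METTL14 complex, often in long exons and around stop codons, and reader proteins of the YTH family that bind it can shorten the life of an mRNA.

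Matches to elements known from immediate early promoters are shown to give the regulatory sequence of the members. They are DNA, and the peak lists measure RNA and hold no value for them. The promoter windows came from RefSeq on GRCh38.p14, a later build than the hg19 of the peaks, and ran from 250 bases before to 50 bases after each annotated start. They covered 7 of the 8 genes with 8 windows, since ATF3 had 2 and FOSL1 had none. Both strands were searched for the AP-1 site TGACTCA, for the cAMP response element TGACGTCA, for its variant TGACATCA and for the CArG box, which binds serum response factor. Motifs are in capitals, all sequences read 5′ to 3′ on the strand of the gene, and bases are counted from the annotated start.
EGR1, 2 CArG boxes (bases -105 to -96 and -83 to -74), chr5:138465364-138465415, plus strand: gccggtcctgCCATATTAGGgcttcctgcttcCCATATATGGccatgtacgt
JUN, TGACATCA (bases -67 to -60), chr1:58784082-58784139, minus strand: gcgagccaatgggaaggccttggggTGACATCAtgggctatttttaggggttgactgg
ATF3, TGACATCA (bases -123 to -116), chr1:212565259-212565316, plus strand: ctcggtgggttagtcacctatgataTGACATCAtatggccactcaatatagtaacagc
JUND, TGACGTCA (bases -200 to -193), chr19:18281790-18281847, minus strand: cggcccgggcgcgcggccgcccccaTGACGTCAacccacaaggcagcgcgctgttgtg
FOSL2, TGACTCA (bases 5 to 11 after the start), chr2:28392858-28392883, plus strand: gtagTGACTCAtctcgggcagagcgc

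The same 8 letters, TGACATCA, stood upstream of JUN and in 1 of the 2 windows of ATF3. Of all 35116 RefSeq windows of this length, 2.61% held TGACATCA, 1.85% held TGACGTCA, 4.95% held TGACTCA and 1.29% held a CArG box. Each motif was found in at most 2 of the 8 windows, so none was common to all members. None of the 4 motifs was found in these windows of JUNB and FOS, which says only that the letters are not there. A match is a description of the letters and not a measured binding site.

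Of the 8 genes, 3 had peaks in the shFTO list alone (JUN, JUNB and ATF3), 2 in the shCtrl list alone (FOSL1 and EGR1), 1 in both lists at different places (FOSL2) and 2 in neither list (JUND and FOS). None of these peaks touched an entry of the opposite list by even 1 bp, on either strand. All 5 shFTO peaks and all 3 shCtrl peaks were thus list-specific. Over the whole lists, 80.4% of shFTO peaks and 79.8% of shCtrl peaks lacked a partner, so the absence of partners at these loci is close to what both lists show everywhere. Pooled over both lists, the 0 of 8 shared peaks allows a shared portion of up to 37.5%. This takes in the 19.6% and 20.2% of peaks that were shared in the shFTO and shCtrl lists. The limit is wider for either list alone, and it counts the 2 ATF3 peaks as separate.

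**Figure D1:**
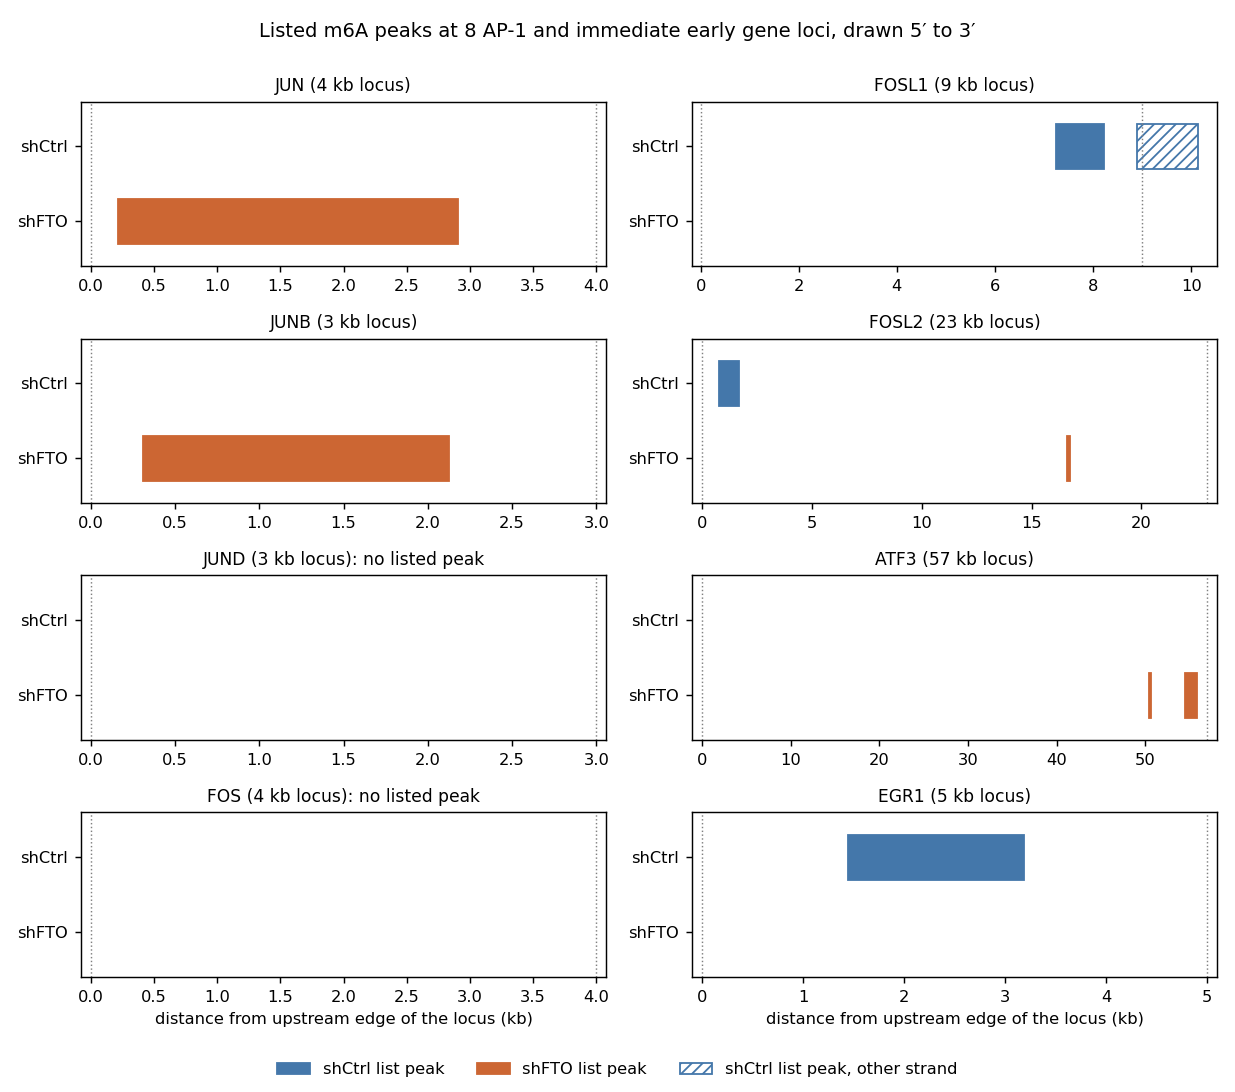
Position of every listed m6A peak in the 8 loci, with distance from the upstream edge of the locus in kb on the x axis (scales differ between panels), the shCtrl list above and the shFTO list below, and dotted lines at the locus edges. JUN, JUNB and ATF3 have shFTO peaks alone, FOSL1 and EGR1 shCtrl peaks alone, FOSL2 a peak in each list 14936 bp apart, and JUND and FOS none; the hatched box is a shCtrl peak on the strand opposite to FOSL1.

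The Jun family provides the core of the AP-1 dimer. JUN encodes c-Jun, the member that most strongly activates transcription and is itself phosphorylated by the JNK kinases. In the shFTO list it carried the widest of the 8 peaks, which ran over 2691 bp at chr1:59247095-59249785 on the minus strand with a score of 3100. The peak began 215 bp from the upstream edge of the 4 kb locus and filled 67.3% of it. Edges of this and the other loci are rounded to the kb, and no transcript ends were read. Distances from an edge and filled portions therefore do not show where in a transcript a peak lies or how much it covers. No JUN peak was in the shCtrl list, where the nearest listed peak lay 114372 bp away.

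JUNB encodes a Jun protein that is a weaker activator than c-Jun and can oppose it. Its pattern was that of JUN, with a wide peak in shFTO cells and none listed in shCtrl cells. The peak spanned 1816 bp at chr19:12902310-12904125 on the plus strand, or 60.5% of the 3 kb locus, and its score was 3100. It began 309 bp from the rounded upstream edge. The nearest peak of the shCtrl list lay 20176 bp away. JUND, which encodes the Jun protein most often found in resting cells, had no listed peak on either strand in either condition. JUN, JUNB and JUND have no introns, so the peaks of JUN and JUNB are uninterrupted stretches of the transcript as far as they lie within it.

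Fos proteins do not pair with each other and act through Jun partners. FOS, the gene of c-Fos and the classical immediate early gene, had no listed peak in either condition, and no other peak was listed within 100 kb of its locus. FOSL1 encodes FRA1, a Fos protein that lacks the strong activation domain of c-Fos. It had a peak in shCtrl cells alone, which spanned 984 bp at chr11:65659784-65660767 on the minus strand with a score of 463.15. This peak lay near the downstream end of the 9 kb locus, 783 bp from its edge. In the shFTO list the nearest peak was 5890 bp away, the shortest distance to the other list for any of the 8 peaks. A further shCtrl peak, at chr11:65657875-65659106 with a score of 3100, reached 106 bp into the FOSL1 locus but lay on the plus strand, so it was not counted for FOSL1.

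FOSL2 encodes FRA2, the other FRA protein. It was the only one of the 8 genes with a peak in both lists, and the peaks were 14936 bp apart. The shCtrl peak covered 911 bp at chr2:28615779-28616689, began 778 bp from the upstream edge of the 23 kb locus and had a score of 3100. The shFTO peak covered 108 bp at chr2:28631626-28631733, began 16625 bp from that edge and had a score of 1731.94. The shCtrl peak was 8.44 times as wide as the shFTO peak and lay towards the upstream edge of the locus, while the shFTO peak lay in its downstream part. At this locus the lists therefore differed in where a peak was listed and not in whether one was listed. Whether either condition also had a called but unlisted peak at the other place is unknown.

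ATF3 encodes a stress-induced member of the ATF family, which pairs with Jun proteins and represses many targets as a homodimer. Both of its peaks were in the shFTO list and on the plus strand. The upstream peak covered 224 bp at chr1:212788380-212788603 with a score of 360.93. The downstream peak covered 1281 bp at chr1:212792504-212793784 with a score of 459.21 and ended 1216 bp from the downstream edge of the 57 kb locus. The peaks were 3900 bp apart and the downstream one was 5.72 times as wide. In the shCtrl list the nearest peak was more than 100 kb from either of them, at 111534 bp from the downstream and 116715 bp from the upstream peak.

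EGR1 encodes a zinc finger factor that growth factors and serum induce within minutes. It had 1 peak, in shCtrl cells, which covered 1743 bp at chr5:137802446-137804188 on the plus strand with a score of 3100. The peak lay in the middle of the 5 kb locus, 1445 bp from its upstream and 1812 bp from its downstream edge. No peak was listed for EGR1 in shFTO cells, where the nearest listed peak lay 36331 bp away. In direction this is the reverse of JUN and JUNB, whose wide peaks were in the shFTO list.

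Each deposited score was taken to be −10 times the log10 of P, and scores were compared only within a list. Exactly 3100 was the score of 611 shFTO and 406 shCtrl peaks, which cannot be ranked against each other. JUN and JUNB in the shFTO list and FOSL2 and EGR1 in the shCtrl list were at this score. Peaks with a score of 3100 or more made up 6.19% of the shFTO list and 4.23% of the shCtrl list, against 2 of 5 and 2 of 3 peaks of these genes. In the whole lists, 22.7% of shFTO peaks and 26.7% of shCtrl peaks with such scores had a partner, so the lack of a partner at a high score was common and not particular to JUN, JUNB, FOSL2 or EGR1. All 8 peaks of these genes scored above the median of their list, which was 220.09 in shFTO cells and 172.18 in shCtrl cells. The lowest relative standing was that of the upstream ATF3 peak, with 61.9% of the shFTO list below its score. The downstream ATF3 peak had 67.6%, FOSL1 75.3% and the FOSL2 peak of shFTO cells 88.8% of their lists below their scores.

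Most of these peaks were also wide. The 3 shCtrl peaks and 3 of the 5 shFTO peaks were wider than the median of their list, which stood at 212 bp for shCtrl and at 242 bp for shFTO. The JUN peak was 11.1 times the shFTO median and wider than 97.9% of that list. EGR1 stood similarly in the shCtrl list, at 8.22 times its median and wider than 96.7% of its peaks. JUNB was wider than 94.0% of the shFTO list. The exceptions were FOSL2 in shFTO cells, at 108 bp narrower than most peaks of its list but among its higher scores, and the upstream ATF3 peak, at 224 bp close to the median.

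**Figure D2:**
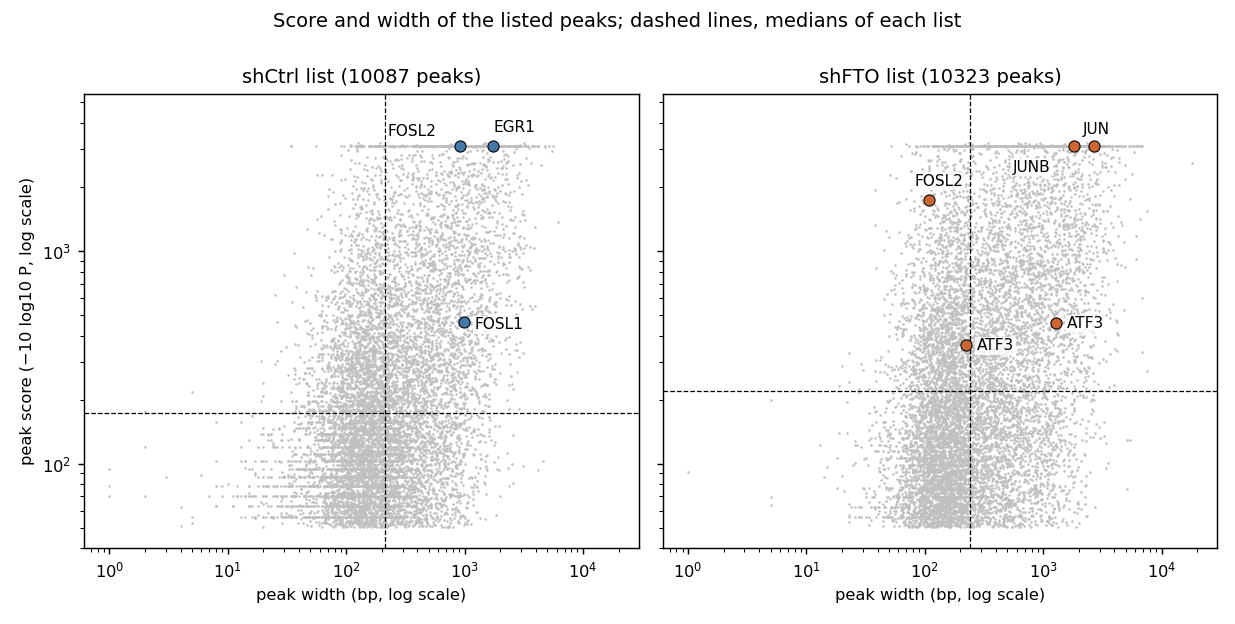
Peak score (read as −10 log10 P) against peak width in bp, both on log axes, for all listed peaks of shCtrl cells (left) and shFTO cells (right) in grey, with the peaks of the AP-1 and immediate early genes coloured and named and the medians of each list dashed. EGR1, JUN, JUNB and the shCtrl peak of FOSL2 lie on the line at 3100, and the shFTO peak of FOSL2 combines a high score with a width of 108 bp.

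The 5 shFTO peaks covered 6120 bp with a mean width of 1224 bp, and the 3 shCtrl peaks covered 3638 bp with a mean width of 1213 bp. The ratio of the covered lengths was 1.68. With all 8 peaks in, it followed the number of peaks, since the mean widths were nearly the same. For the whole lists the ratio was 1.34, and there the ratio of mean widths was 1.31. The value at these loci rested on 1 gene. Without JUN, 4 shFTO peaks covered 3429 bp, less than the 3 shCtrl peaks, and the ratio fell to 0.943. Counting peaks on either strand, which adds the plus-strand peak at the edge of FOSL1, gave 1.26.

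The peak names bear on how the absence of a peak from a list can be read. They are in the form that MACS writes, and their numbers rose with position along every chromosome of both lists. Numbers skipped between neighbouring entries were therefore read as peaks that were called and are not in the list. The highest number was 161598 in the shFTO list and 173974 in the shCtrl list, and the lists held 6.39% and 5.80% as many peaks. Around every one of the 8 loci, numbers were skipped between the listed peaks that flank it. In the shCtrl list, 68 numbers were skipped between the peaks on either side of the JUN locus, which were 1201 kb apart, 22 across the 125 kb around JUNB and 62 across the 631 kb around ATF3. In the shFTO list, 9 were skipped across the 88.3 kb around EGR1 and 6 across the 30.4 kb around FOSL1. Around FOS, which has no listed peak, 31 numbers were skipped in the shCtrl and 6 in the shFTO list, and around JUND 14 and 12. For FOSL2, with a peak in each list, 52 were skipped in the shCtrl and 43 in the shFTO list. A called peak at any of these genes may be among the skipped numbers, so a missing entry does not show that the transcript lacked an m6A peak in that condition.

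On the same reading of skipped numbers, more could be said next to some of the peaks. The ATF3 peaks carried the numbers 14457 and 14459. If the skipped number was a called peak of shFTO cells, it began between the starts of these peaks. Its strand is unknown, since the numbers run over both strands, so it may not belong to ATF3. The FOSL1 peak of shCtrl cells was number 29644 and followed the plus-strand peak 29643 directly, so no called peak of that list began between them. For EGR1, 2 numbers were skipped between the preceding listed peak, 30230 bp upstream and outside the locus, and the EGR1 peak. Peaks with these numbers need not lie at EGR1.

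Within 100 kb outside the loci, 21 peaks were listed in shFTO cells and 18 in shCtrl cells, without the plus-strand peak that reaches into the FOSL1 locus, of which 3 in each list were shared (14.3% and 16.7%). They lay around JUNB, JUND, FOSL1, FOSL2 and EGR1, while the surroundings of JUN, FOS and ATF3 held no other listed peak. For each locus the nearest shared pair of peaks, from 27.8 kb away (JUNB) to 1564 kb away (FOS), was then examined, and 5 of the 8 pairs lay beyond 100 kb. In 5 of 8 pairs both edges were at the same base, in 2 only the end, and in 1 neither. Over the whole lists, 54.7% of 2037 overlapping pairs had both edges at the same base. These pairs were picked because they are shared, so their edges do not bear on the peaks of the 8 genes themselves.

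**Figure D3:**
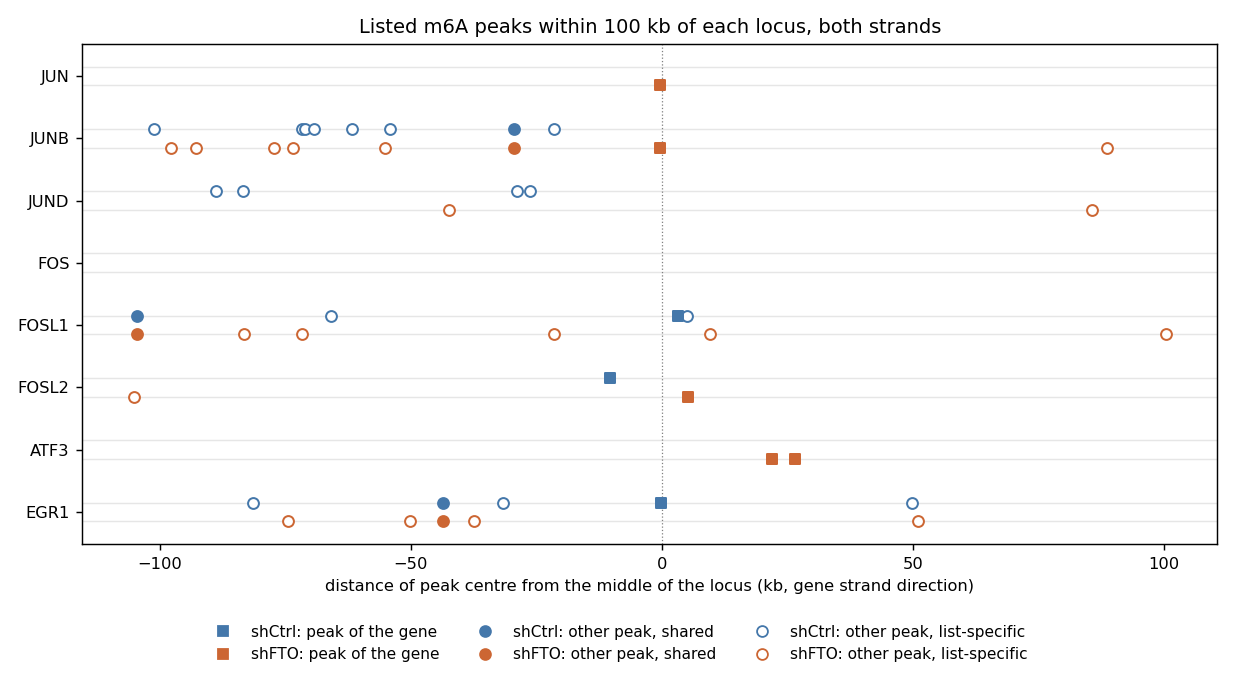
Centres of all listed peaks within 100 kb of each locus, in kb from the middle of the locus in the direction of the gene, with shCtrl peaks on the upper and shFTO peaks on the lower line of each gene; squares are peaks of the named gene, filled circles other shared peaks and open circles other list-specific peaks. Shared neighbours stand beside JUNB, FOSL1 and EGR1, and JUN, FOS and ATF3 have no other listed peak in this range.

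Neither list gives reads, so the depth of the libraries and the level of each mRNA are unknown. A gain or loss of m6A cannot be told apart from a change in mRNA level, sequencing depth or the selection of peaks for the lists.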

How the data were processed

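The analysis used 2 peak lists, each made by the authors from 1 m6A IP library and 1 input library of RWPE1 cells. The submitters' processing notes name cutadapt 1.9.3, HISAT2 and hg19. Settings of the peak caller and the rule that selected the listed peaks are not given in the sources used here. The score of each peak is the one the authors deposited, and was taken to be −10 times the log10 of P since both lists start just above 50. Positions are 1-based.

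Loci were those stated for the 8 genes, which also form the rule for named genes, and the members and lists were chosen with earlier results of these data known. Peaks of the 2 lists were shared where they had 1 bp or more in common, whatever their strand. Peak numbers were taken from the peak names. The limit for a count of 0 is 3 counts of the total and covers counting error only. Python 3.11.15, pandas 2.3.3, SciPy 1.17.1, NumPy 2.4.6 and matplotlib 3.10.9 were used, and the counting of overlaps was first tested on simulated peaks. Other AP-1 pathway genes were not located, since a gene table of hg19 was not used here, and neither sequences of the peaks nor proteins were read. Depth per library is unknown. The 9 alternatives to the settings are given in the closing section.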

Additional observations from a re-analysis of the deposited data

How the results depend on the processing

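The counts (5 peaks in shFTO alone, 3 in shCtrl alone, 0 shared) and the ratio of covered lengths were the same under 8 of the 9 alternatives: other definitions of a shared peak, the same strand for partners, peaks at or above the median score, merging of peaks within 100 bp, peaks wholly inside the locus and loci extended by 2 kb. Most of these outcomes were fixed in advance and add no support. Stricter definitions could not make a shared peak where no 1 bp was in common. With the nearest peak of the opposite list 5890 bp away, a distance of 100 bp could not make one either. All 8 peaks scored above the median of their list, so that filter removed none. Counting peaks of either strand gave 4 shCtrl-only peaks and moved the ratio of covered lengths from 1.68 to 1.26. Leaving out JUN, a setting added after the values were seen, turned the ratio to 0.943 and left 4 peaks in shFTO alone. No paired analysis was possible because there is a single IP and a single input library for shFTO and for shCtrl, which also leaves no replicate to drop. With unknown depth, a gene without a listed peak was not separated from a gene whose peak was called and not listed.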
